A study of Homo sapiens with 6 samples.

Results

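The 10 genes described here act in actin filament turnover, and they were followed in MCF10DCIS.com cells (hereafter MCF10DCIS), a human breast line of basal epithelial character that is used as a model of ductal carcinoma in situ, after silencing of WDR5, the core subunit of the histone H3 lysine 4 methyltransferase complexes. The members were the ADF/cofilin genes CFL1, CFL2 and DSTN, the gelsolin gene GSN, the coronin genes CORO1B, CORO1C and CORO2A, the fascin gene FSCN1 and the profilin genes PFN1 and PFN2. They were taken by symbol from the deposited count table, and all 10 of 10 were found among its 26334 genes. All 10 passed the filter on low counts, which left 16117 genes to test. The RNA came from 3 samples labelled shLuc, infected with a vector against luciferase as the control, and 3 labelled shWDR5, infected with the same vector backbone carrying a sequence against WDR5. Cells of both groups carried TagRFP and a puromycin resistance gene, and were selected with 3 µg/ml of puromycin in medium with horse serum. The labels do not say how many hairpins the shWDR5 vector carried, and the study describes pooled hairpins for its WDR5 silencing. The comparison asks what loss of WDR5 does to genes that shape the actin cytoskeleton, since the study follows cell shape and motility in this line. The study itself names CFL2, CORO1C and FSCN1 among actin remodelling genes that were higher after WDR5 knockdown, in its patient-derived xenografts. It also analysed the present line, so their direction here is not independent evidence.

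Actin filaments grow at the barbed end by addition of ATP-actin and are taken apart from the older, ADP-bound part of the filament. ADF and cofilins bind that older part, sever it and speed its disassembly, and are switched off by phosphorylation by LIM kinases and switched on again by Slingshot phosphatases. Coronins act with cofilin and the Arp2/3 complex at branched networks in the leading edge, fascin ties filaments into the straight bundles of filopodia, and profilins load actin monomers with ATP and hand them to growing ends. In breast cancer cells these proteins are known for their part in protrusion, migration and invasion.

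WDR5 itself was lower in every shWDR5 library. Its level, as CPM (counts scaled to a common library size, with TMM factors, which assume that most genes do not change), was 52.6, 48.5 and 51.3 in the shLuc libraries and 23.4, 24.4 and 20.8 in the shWDR5 libraries. That is a log2 fold change of -1.15 ± 0.07 (SE), or 0.450-fold (edgeR quasi-likelihood test, adjusted p = 8.67e-07). The libraries held 38218108 to 57640167 counts, and the first principal component, with 79.2% of the variance, separated the groups. All 8 epithelial markers examined were present, with a summed level of 7115 to 7577 CPM in shLuc and 9265 to 10360 CPM in shWDR5. Among those 8, KRT5, KRT14, KRT17 and TP63 rose, with log2 fold changes of 0.42 to 1.29, and CDH1 and EPCAM fell, by 1.03 and 0.33. KRT8, at 0.04, and KRT18, at -0.12, did not pass the test (adjusted p = 0.607 and 0.110). For total CDH1 protein in this line, the study reports no significant difference. The reason for this difference between RNA and protein was not tested. Of 6 fibroblast markers, 5 stayed under 1 CPM in every library and LUM was at 0. The sum of the 6 was 21.6 to 23.7 CPM in shLuc and 14.9 to 17.8 CPM in shWDR5. Most of it was COL1A1, which fell from 22.1 to 15.6 CPM on average (log2 fold change -0.50 ± 0.08, adjusted p = 0.000438). Of 6 leukocyte and endothelial markers 3 stayed under 1 CPM, with CD3E at 0 in every library, and the sums were 18.4 to 20.6 CPM and 15.4 to 17.1 CPM. Most of these sums came from CD68 and PECAM1. CD68 had 11.9 and 11.1 CPM on average and did not pass the test (adjusted p = 0.426). PECAM1 fell from 6.50 to 3.97 CPM (adjusted p = 5.65e-05). The part of these markers in the results was not tested. As the RNA is from bulk cultures, fewer cells of a type and less RNA per cell cannot be told apart. The labels number the replicates but do not say that they came from separate infections, so p-values measure the spread between these libraries only.

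WDR5 silencing raised 6 of the 10 genes and lowered 1. CFL2 and CORO1C rose most, by 2.49-fold and 1.92-fold, CFL1, FSCN1, PFN1 and PFN2 rose by 1.26-fold to 1.38-fold, and CORO2A fell to 0.476-fold. DSTN, CORO1B and GSN did not pass the test. A gene was called at an adjusted p under 0.05 (edgeR, Benjamini-Hochberg over all genes tested), and 56.5% of all tested genes were called, 26.6% as higher and 29.9% as lower. Under the stricter rule given by the study, which also asks for an absolute log2 fold change of at least 0.6 and a level above 0.5 RPKM (CPM per kilobase of exon), 2 members were higher (CFL2 and CORO1C) and 1 was lower (CORO2A), beside 7.9% and 10.5% of tested genes. The lowest shWDR5 library lay above the highest shLuc library for 6 members, and the reverse held for 1, where 29.9% and 32.4% of tested genes were so separated upwards and downwards. The median log2 fold change was 0.35 over the 10 genes and -0.01 over all genes tested.

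**Figure D1:**
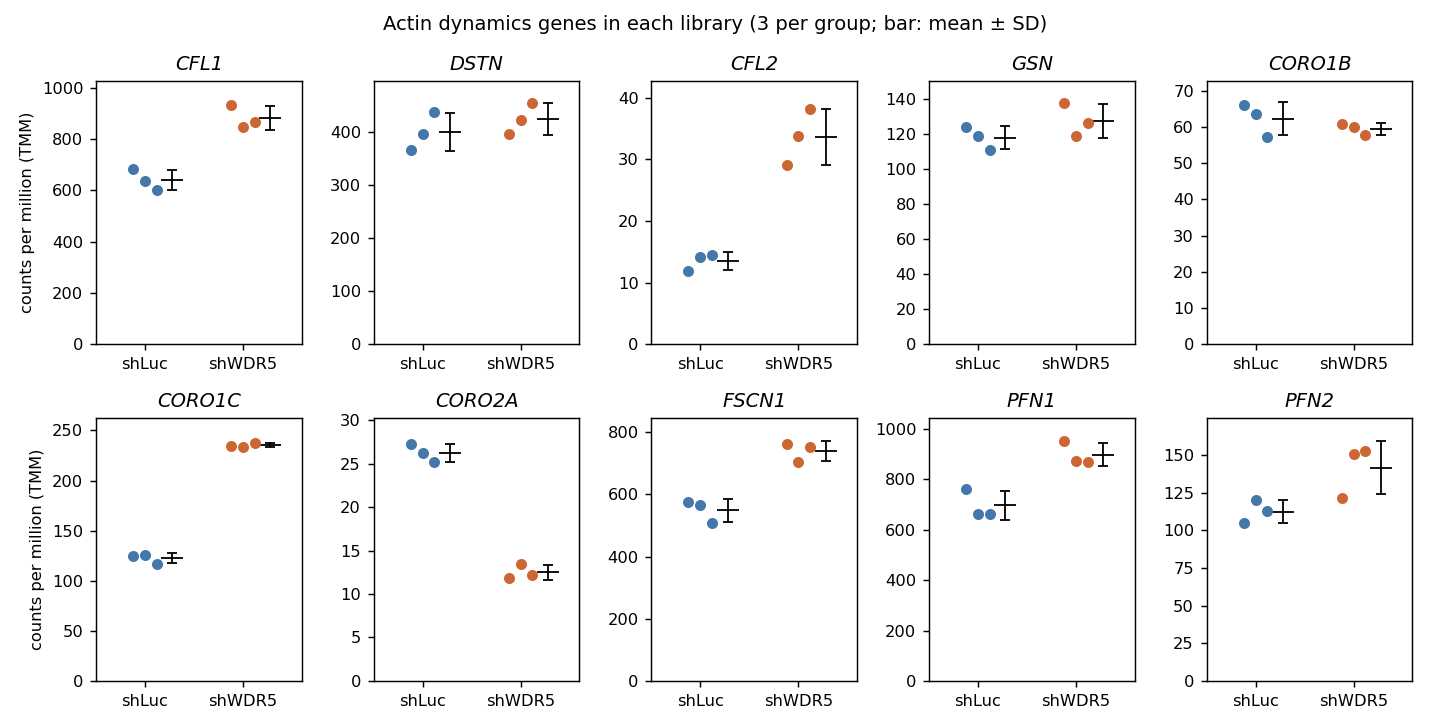
Level of each of the 10 genes in CPM (vertical axes, linear and starting at 0) in the 3 shLuc (blue) and 3 shWDR5 (orange) libraries, with the mean and SD of each group as a black bar. The groups do not overlap for CFL1, CFL2, CORO1C, CORO2A, FSCN1, PFN1 and PFN2, and they overlap for DSTN, GSN and CORO1B.

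**Figure D2:**
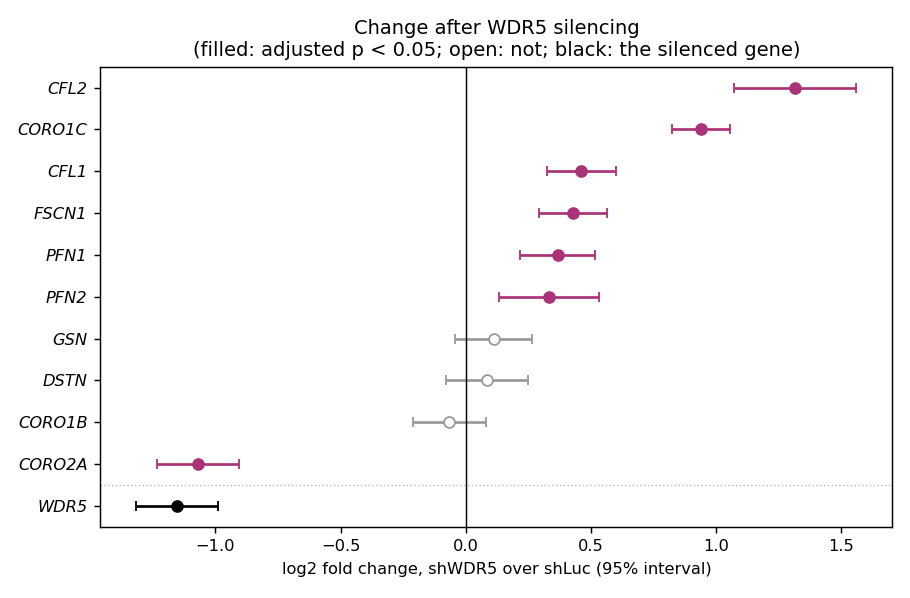
Log2 fold change of shWDR5 over shLuc (horizontal axis) with its 95% interval for each gene and, in black, for WDR5. CFL2 lies highest at 1.32 and CORO2A lowest of the 10 at -1.07, and the intervals of GSN, DSTN and CORO1B include 0.

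WDR5 is known to act at promoter chromatin, and the upstream sequences of the 3 genes that passed the stricter rule are shown as context. Each is the 250 bases before the most upstream RefSeq start of the gene, read 5′ to 3′ on the gene's strand, and capitals mark every GGGCGG (a GC box, bound by Sp1-type factors) and CACGTG (an E-box, bound by MYC-MAX), on either strand, so that a GC box on the other strand reads CCGCCC. Positions are those of build GRCh38.p14, whereas the counts were made on hg19, and which start these cells use was not measured. The windows lie at chr14:34714594-34714843 for CFL2, chr12:108731519-108731768 for CORO1C and chr9:98192638-98192887 for CORO2A, all on the minus strand.
CFL2: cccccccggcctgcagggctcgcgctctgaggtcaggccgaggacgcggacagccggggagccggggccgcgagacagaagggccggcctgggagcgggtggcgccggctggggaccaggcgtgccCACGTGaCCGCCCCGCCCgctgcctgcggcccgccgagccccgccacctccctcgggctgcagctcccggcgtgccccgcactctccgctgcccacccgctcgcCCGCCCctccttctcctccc
CORO1C: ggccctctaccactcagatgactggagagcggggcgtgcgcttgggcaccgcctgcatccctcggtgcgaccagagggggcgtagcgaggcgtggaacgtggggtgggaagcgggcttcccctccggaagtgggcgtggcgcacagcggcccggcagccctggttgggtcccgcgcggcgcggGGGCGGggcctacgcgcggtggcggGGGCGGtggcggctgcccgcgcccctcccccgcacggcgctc
CORO2A: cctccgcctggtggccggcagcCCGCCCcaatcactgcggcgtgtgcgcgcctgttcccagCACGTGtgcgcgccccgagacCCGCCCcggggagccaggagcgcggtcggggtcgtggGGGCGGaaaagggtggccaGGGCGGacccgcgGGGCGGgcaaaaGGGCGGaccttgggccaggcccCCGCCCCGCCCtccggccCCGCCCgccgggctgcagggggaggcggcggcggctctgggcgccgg

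All 3 windows were rich in G and C, at 80.4% for CFL2, 77.6% for CORO1C and 81.2% for CORO2A, where the median of 27326 promoter windows of the same length was 57.6%. The CORO2A window held 9 GC boxes, against 3 for CFL2 and 2 for CORO1C, some of them overlapping. Sequences were matched for 8 of the 10 genes (CFL1, CFL2, DSTN, CORO1B, CORO1C, CORO2A, PFN1 and GSN), and all 8 windows held a GC box, as did 42.2% of all windows. For GSN, the first bases after the window were found in 0 transcripts of the gene in a second annotation (GENCODE), so its start is less certain. CACGTG lay in the windows of CFL2, 124 bases before the start, and of CORO2A, 189 bases before it, that is in a gene that rose and in a gene that fell, and in 6.47% of all windows. The CArG box, the site of serum response factor that is known from many actin genes, was in none of the 8 windows and in 1.15% of all. These are matches of letters, not measured binding sites.

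The ADF/cofilin genes code for close relatives that differ in where they are made, with CFL1 as the non-muscle cofilin, CFL2 as the form best known from muscle and DSTN as the ADF of epithelial cells. CFL2 (hg19, chromosome 14, 35179588 to 35184029, minus strand, with reads counted over 5 exon blocks) had 11.9, 14.2 and 14.5 CPM in the shLuc libraries and 29.04, 33.9 and 38.2 CPM in the shWDR5 libraries. Every shWDR5 library lay above every shLuc library. The log2 fold change was 1.32 ± 0.11 (SE, adjusted p = 4.82e-06), with a 95% interval of 2.101-fold to 2.95-fold. In absolute size this exceeded that of 94.8% of all genes tested.

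CFL1 (chromosome 11, 65622285 to 65625804, minus strand) had 683, 637 and 603 CPM in shLuc and 934, 847 and 868 CPM in shWDR5. The groups did not overlap, and the log2 fold change was 0.46 ± 0.06 (adjusted p = 0.000116). DSTN (chromosome 20, 17550599 to 17588652, plus strand) had 367, 396 and 437 CPM in shLuc and 396, 423 and 455 CPM in shWDR5. Here the groups overlapped, and the log2 fold change of 0.09 ± 0.07 did not pass the test (adjusted p = 0.354). Its 95% interval ran from 0.947-fold to 1.19-fold, which lies below the whole interval of CFL1, 1.25-fold to 1.52-fold.

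The make-up of the ADF/cofilin pool was then compared per length, as the share of each gene in the summed RPKM of all 3. CFL1 made up 68.6% ± 3.2 (SD, n = 3) of the pool in shLuc and 73.5% ± 2.2 in shWDR5, DSTN 30.9% ± 3.2 and 25.5% ± 2.1, and CFL2 0.520% ± 0.063 and 1.00% ± 0.15. The groups overlapped narrowly for the share of CFL1 (71.80% in shLuc replicate 1 and 71.78% in shWDR5 replicate 3) and did not overlap for the other two. CFL2 remained a minor form after its rise. The summed level of the pool was 743 ± 12 RPKM in shLuc and 955 ± 27 RPKM in shWDR5. The log2 ratio of CFL2 to CFL1 was higher in shWDR5 by 0.85, and that of DSTN to CFL1 was lower by 0.38, each without overlap between the groups (exact two-sided permutation test, p = 0.1 for each, which is the smallest p that 3 against 3 allows). Over the 5 ratios between relatives that were tested, the adjusted p was 0.125 for both.

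Reads of processed pseudogenes bear on 2 of these counts. CFL1P1 was counted with 8 to 20 reads a library, a small number beside CFL1. DSTNP2, chosen after its values were seen, was counted with 115, 72 and 87 reads in shLuc and 529, 576 and 485 in shWDR5, and rose by 2.34 ± 0.10 on the log2 scale (adjusted p = 1.39e-07). DSTN itself was counted with 15365 to 24065 reads, so that the pseudogene held few reads beside it. How the counting shared reads between near-identical copies is not given in the sources used here, and these values are uncertain in that respect.

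GSN, which severs filaments in response to calcium and then caps them, had 124, 119 and 111 CPM in shLuc and 138, 119 and 126 CPM in shWDR5. The groups overlapped. The log2 fold change was 0.11 ± 0.07 (adjusted p = 0.193) and its 95% interval ran from 0.972-fold to 1.20-fold. The gene lies on chromosome 9 (124030380 to 124095120, plus strand), and 358 of its exonic bases, 10.3%, are shared with the antisense gene GSN-AS1 on the opposite strand, which was counted with 76 to 123 reads a library. Without stated strand counting, reads from that stretch cannot be told apart.

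The 3 coronins among the members moved in different ways. CORO1C, a widely made coronin of the leading edge and of endosome membranes (chromosome 12, 109038885 to 109125326, minus strand), had 125, 126 and 117 CPM in shLuc and 235, 234 and 237 CPM in shWDR5. The shWDR5 libraries lay close together and all were far above the shLuc libraries, with a log2 fold change of 0.94 ± 0.05 (adjusted p = 3.72e-07). CORO2A (chromosome 9, 100883257 to 100954956, minus strand), which is known also as a component of the NCoR corepressor complex, had 27.2, 26.3 and 25.2 CPM in shLuc and 11.9, 13.5 and 12.1 CPM in shWDR5. It fell by 1.07 ± 0.07 on the log2 scale (adjusted p = 1.41e-06), the only member called as lower. CORO1B (chromosome 11, 67205518 to 67211292, minus strand), which removes Arp2/3 complex from branches and recruits Slingshot phosphatase, had 65.9, 63.6 and 57.1 CPM in shLuc and 60.8, 60.1 and 57.7 CPM in shWDR5. The groups overlapped, with a log2 fold change of -0.06 ± 0.07 (adjusted p = 0.431) and a 95% interval of 0.864-fold to 1.06-fold.

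Per length, the coronin pool changed its leading member. CORO1B held 48.6% ± 1.0 (SD, n = 3) of the summed RPKM of the 3 genes in shLuc and 34.4% ± 0.8 in shWDR5, whereas CORO1C held 44.4% ± 0.9 and 63.1% ± 0.8. CORO2A went from 7.04% ± 0.16 to 2.48% ± 0.17. CORO1B was above CORO1C in every shLuc library and below it in every shWDR5 library. The log2 ratio of CORO1C to CORO1B differed by 1.00 between the groups and that of CORO2A to CORO1B by -1.01, again without overlap (exact permutation test, p = 0.1 for each, the smallest possible, and 0.125 adjusted over the 5 ratios). The sum of the 3 was 64.7 ± 3.5 RPKM in shLuc and 87.3 ± 0.5 RPKM in shWDR5.

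**Figure D3:**
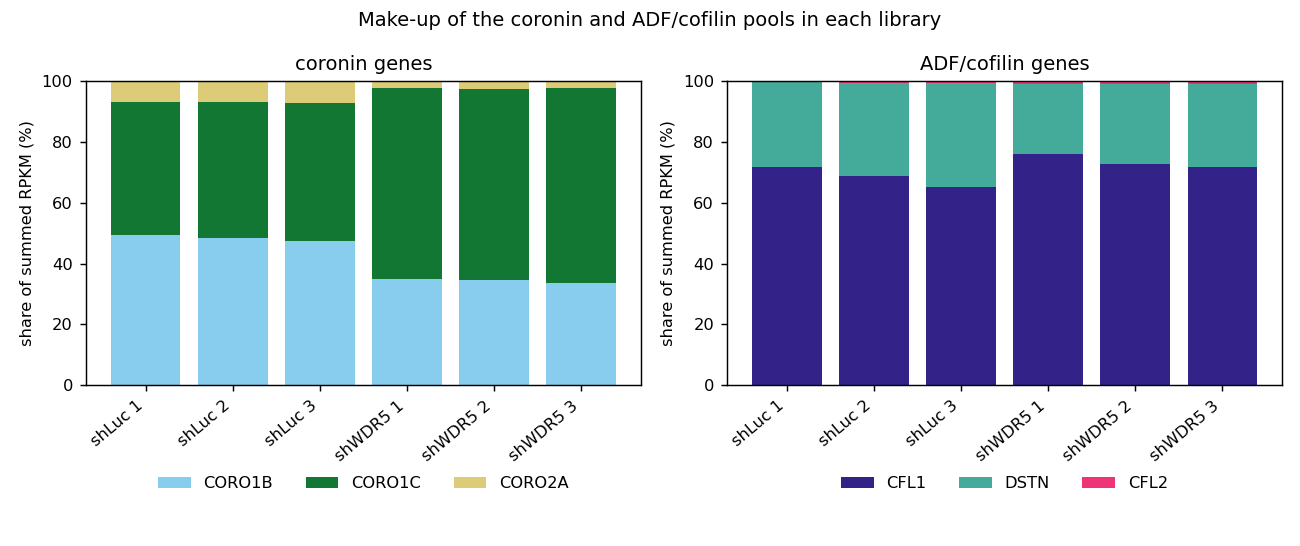
Share of the summed RPKM (vertical axis, percent) held by each gene of the coronin pool (left) and of the ADF/cofilin pool (right) in each of the 6 libraries. The coronin pool holds CORO1B, CORO1C and CORO2A only, and other coronins such as CORO1A were left out. CORO1C takes over from CORO1B as the largest share in the shWDR5 libraries, at 63.1% on average, and CFL2 has the smallest share of its pool in every library, at 0.520% on average in shLuc and 1.00% in shWDR5.

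FSCN1, the bundling protein of filopodia and invadopodia (chromosome 7, 5632436 to 5646287, plus strand), had 574, 567 and 507 CPM in shLuc and 762, 704 and 752 CPM in shWDR5. All shWDR5 libraries lay above all shLuc libraries, and the log2 fold change was 0.43 ± 0.06 (adjusted p = 0.000185). Its sequence relatives, which are not members and were named after their values were seen, were counted with few reads. The retinal fascin FSCN2 had 0.860 CPM on average in shLuc and 2.63 CPM in shWDR5, and the testis form FSCN3 did not pass the filter. FSCN1 thus accounted for nearly all fascin reads.

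Both profilins rose. PFN1 (chromosome 17, 4848945 to 4852381, minus strand), the ubiquitous form, had 763, 664 and 663 CPM in shLuc and 952, 874 and 870.2 CPM in shWDR5, with a log2 fold change of 0.37 ± 0.07 (adjusted p = 0.000959). PFN2 (chromosome 3, 149682691 to 149688741, minus strand), the form best known from neurons, had 105, 120.1 and 113 CPM in shLuc and 121, 150.4 and 153 CPM in shWDR5. Its groups were separated by a narrow gap, between 120.1 and 121.1 CPM, and the log2 fold change was 0.33 ± 0.09 (adjusted p = 0.00931). PFN2 held 9.52% ± 1.22 (SD, n = 3) of the profilin RPKM in shLuc and 9.29% ± 1.45 in shWDR5. The log2 ratio of PFN2 to PFN1 differed by -0.04 between the groups (exact permutation test, p = 0.7), and the sign of this difference turned when shLuc replicate 2 or shWDR5 replicate 1 was left out. The ratio was lowest in replicate 1 of each group, at -3.49 in shLuc and -3.60 in shWDR5. PFN1P2, a pseudogene relative of PFN1, was counted with 1313 to 2175 reads beside 25737 to 49659 for PFN1.

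The order of levels per length was similar in both groups. In shLuc, PFN1 (510.3 ± 42.3 RPKM, SD) and CFL1 (509.9 ± 32.1 RPKM) were highest and overlapped, followed by DSTN (229 ± 20), FSCN1 (196 ± 13), PFN2 (53.4 ± 3.7), GSN (33.9 ± 1.9), CORO1B (31.4 ± 2.3), CORO1C (28.7 ± 1.1), CORO2A (4.55 ± 0.18) and CFL2 (3.86 ± 0.41). GSN and CORO1B, and CORO1B and CORO1C, overlapped as neighbours in that order, and all other neighbours below CFL1 were separated. In shWDR5, CFL1 (702 ± 36 RPKM) and PFN1 (658 ± 34) again overlapped at the top, FSCN1 (265 ± 11) overlapped with DSTN (243 ± 17), CORO1C (55.1 ± 0.4) stood above GSN (36.6 ± 2.8) and CORO1B (30.1 ± 0.8), and CFL2 (9.59 ± 1.30) stood above CORO2A (2.17 ± 0.15). CFL1 and PFN1 were above 99.3% of all tested genes in shLuc, and CFL2 above 43.4%. Together the 10 genes took 0.272% to 0.290% of all counts in shLuc and 0.341% to 0.353% in shWDR5.

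CFL2 had the largest change of the called members, and its pattern was compared with that of all tested genes by the Euclidean distance of mean-centred log2 CPM over the 6 libraries. The nearest genes were MAF, at a distance of 0.117, SNAI2, at 0.213, and CXCL1, at 0.215, where the median distance over all genes was 1.69. MAF had 19.1 to 21.7 CPM in shLuc and 44.5 to 58.3 CPM in shWDR5. SNAI2, an EMT transcription factor, had 16.3 to 18.1 CPM in shLuc and 39.5 to 46.6 CPM in shWDR5. The study reports the opposite direction for SNAI2 protein in this line, and for SNAI2 RNA in most of its xenografts. The reason for this difference was not tested. MAF, SNAI2 and CXCL1 all stepped up between the groups by about as much as CFL2, and 6 libraries in 2 groups give such a distance little else to measure.

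The wider actin pathway was then examined in 100 further genes, of which 93 passed the filter. Of these, 32 rose (34.4%) and 30 fell (32.3%), with a median log2 fold change of -0.01, the same as over all genes tested. Over all genes tested, 26.6% were higher and 29.9% lower, and no difference between lists was tested. With libraries scaled by their totals alone, 27 of the 93 were higher and 36 lower. In the Arp2/3 complex, which nucleates the branches that coronins and cofilin take apart, 7 of 10 genes rose and 1 fell, with a median of 0.23. ARPC1A had the largest rise (166.8 to 232.2 CPM on average, log2 fold change 0.48 ± 0.06, adjusted p = 5.81e-05), and ACTR2 was the gene that fell (-0.32 ± 0.11, adjusted p = 0.0252). Between 6 and 8 rose under the other scalings tried. Among the formins and Ena/VASP proteins, which elongate unbranched filaments from profilin-bound actin, 1 of 15 rose and 7 fell. DIAPH3, a formin active in filopodia and cell division, fell from 46.0 to 18.9 CPM (log2 fold change -1.28 ± 0.08, adjusted p = 7.78e-07), and FHOD3 rose by 0.49 ± 0.06 on the same scale.

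The list of cofilin regulators, which is not limited to kinases and phosphatases, had 4 of 18 higher and 5 lower. With libraries scaled by their totals alone, 3 were higher and 7 lower. The shares over all genes tested were 26.6% higher and 29.9% lower. LIMK2, which phosphorylates and so inactivates cofilin, rose from 98.0 to 158.8 CPM (log2 fold change 0.70 ± 0.06, adjusted p = 8.83e-06), and PAK1, which activates LIM kinases, fell from 62.1 to 31.8 CPM (-0.96 ± 0.06, adjusted p = 4.79e-07). The other LIM kinase, the other PAK genes of the list and the Slingshot phosphatases were named after their values were seen. PAK2 went the other way from PAK1 and rose from 120.4 to 168.7 CPM (0.49 ± 0.07, adjusted p = 0.000119). PAK4, at -0.10 ± 0.06, did not pass the test (adjusted p = 0.210). LIMK1 fell by 0.41 ± 0.06 on the log2 scale. Of the phosphatases, SSH3 fell by 0.75 ± 0.07, SSH1 rose by 0.13 ± 0.05 (adjusted p = 0.048, and 0.212 with library totals), and SSH2, at 0.12 ± 0.06, did not pass the test (adjusted p = 0.124). The phosphorylation of cofilin was not measured. Among 10 tested relatives of the members that were not members, 3 rose and 3 fell. CORO1A, the coronin best known from leukocytes, fell from 23.2 to 11.7 CPM (-0.99 ± 0.09, adjusted p = 5.78e-06), and AVIL, a relative of gelsolin, rose from 1.41 to 5.06 CPM (1.83 ± 0.11, adjusted p = 6.68e-07).

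Among the actins and the thymosins that hold actin monomers, TMSB10, which competes with profilin for monomers, rose from 1084 to 2167 CPM (2.00-fold, adjusted p = 1.05e-06). In this short list 3 of the 4 tested genes rose, beside 26.6% of all genes tested. ACTB had 5689 to 6138 CPM in shLuc and 5718 to 6067 CPM in shWDR5, with a log2 fold change of -0.01 ± 0.05 (adjusted p = 0.918). The sign of this value for ACTB turned with the scaling. ACTG1 rose by 0.18 ± 0.06 (adjusted p = 0.0231), and this call was lost when libraries were scaled by their totals alone (adjusted p = 0.0794).

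Of the remaining lists, the Arp2/3 activators had 5 of 14 higher and 6 lower, the capping and pointed-end proteins 4 of 14 higher and 5 lower (3 and 7 with library totals), and the other bundlers and crosslinkers 5 of 8 higher and 3 lower. These counts stand beside 26.6% higher and 29.9% lower over all genes tested. WASF3, of the WAVE family, rose by 0.37 ± 0.07, and WAS, which was counted with only 7 to 28 reads a library, fell by 1.16 ± 0.33. EPS8, which caps and bundles filaments, fell from 75.9 to 44.2 CPM, and TMOD4 rose by 1.55 ± 0.35 but was counted with only 7 to 42 reads a library. FLNA, a filament crosslinker, rose from 21.1 to 66.7 CPM (1.66 ± 0.11, adjusted p = 1.02e-06), and PLS1, a plastin of microvilli, fell from 34.2 to 21.4 CPM.

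**Figure D4:**
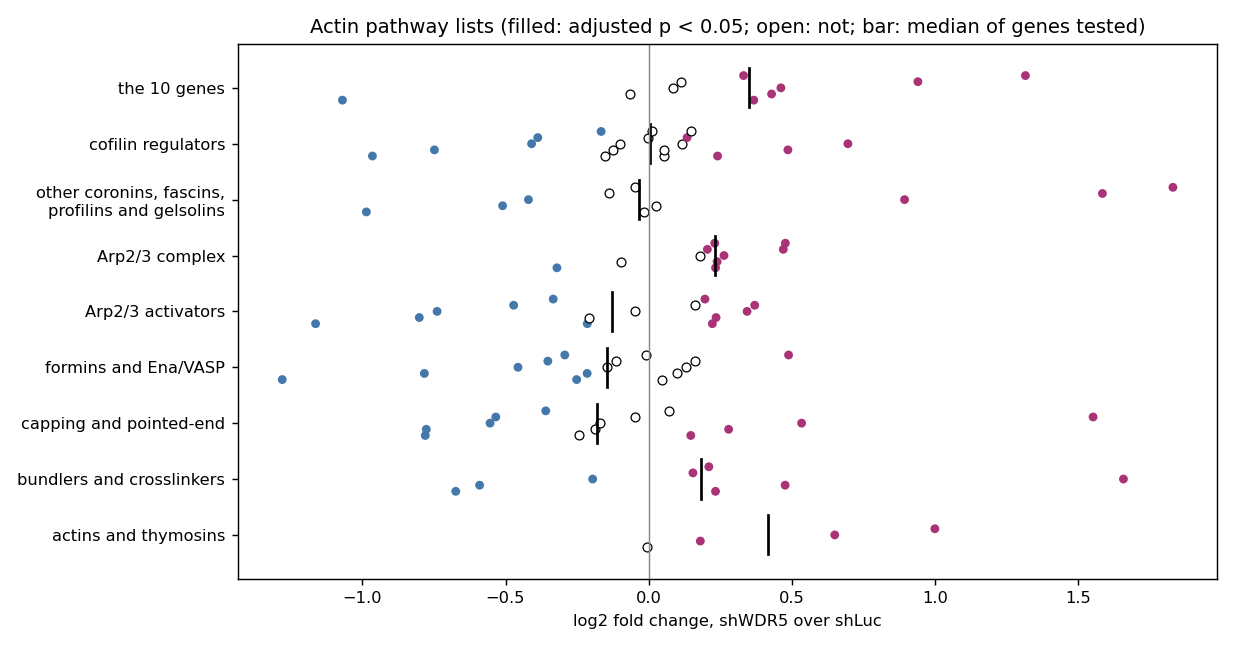
Log2 fold change of shWDR5 over shLuc (horizontal axis) of each tested gene in the 10-gene set and in 8 lists of the wider actin pathway. Filled points passed an adjusted p of 0.05 (magenta higher, blue lower), open points did not, and the black bar is the median of the list, which is 0.35 for the 10 genes, 0.23 for the Arp2/3 complex and -0.15 for the formins and Ena/VASP proteins.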

How the data were processed

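Poly-A RNA of 3 shLuc and 3 shWDR5 samples was sequenced by the authors (TruSeq RNA, HiSeq). The deposited table holds raw counts per gene, which the submitters' processing notes credit to TopHat2 2.1.0 and featureCounts on hg19; the strand setting and the handling of multi-mapping reads are not given in the sources used here. A deposited table of the authors' own edgeR comparison (fold changes and p-values) was not used. Groups came from the sample titles. Genes were filtered with filterByExpr, scaled by TMM and fitted with the edgeR 4.0.16 quasi-likelihood test in R 4.3.3 (group as the only term), with Benjamini-Hochberg adjustment over 16117 genes and a threshold of 0.05. The fit was tested on simulated data with 200 changed genes, as many raised as lowered, and no replicate effect. With so few changed genes, that test cannot check the TMM assumption that most genes do not change. RPKM used the deposited summed exon length of each gene. Ratios between relatives were tested by exact permutation. DESeq2 1.42.0, other scalings, other filters, a replicate block and the omission of each library were tried as alternatives. The members had 549 to 49659 counts a library, and a few other named genes had under 50 in some libraries, where counting error adds to the spread between the 3 libraries of a group. Promoters were read from RefSeq tables (GRCh38.p14).

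The members and gene lists were chosen with earlier results of these data known. Genes named in the text are all 10 members and WDR5, the called gene of largest change in each direction from each wider list, ACTB and ACTG1, and the 3 genes nearest to the member of largest change. Cell type markers are named from fixed lists, pseudogenes and GSN-AS1 because they can share reads with members, and other genes are marked where named.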

Additional observations from a re-analysis of the deposited data

How the results depend on the processing

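The calls of all 10 members kept their direction and their side of the threshold under other scalings, DESeq2, both other filters and the omission of each library in turn. With a replicate block (replicate number as an added term) GSN passed (log2 fold change 0.11, adjusted p = 0.0489), so that 7 members were higher, and 10412 genes were called in place of 9112, 9086 of them shared; no other member's call changed. Deviations of same-numbered libraries correlated at 0.37, 0.04 and 0.12, and shLuc replicate 2 correlated best with shWDR5 replicate 3, so the numbers were not taken as pairs. The 0.37 of the replicate 1 libraries was the highest of all pairs. On the second principal component, with 8.22% of the variance, they lay at 19.1 in shLuc and 15.1 in shWDR5. The other libraries lay between -13.0 and -3.27. The main fit does not remove such a shift shared by replicate 1, and its source was not tested. Under the study's rule, 2962 genes were called, 1274 higher and 1688 lower, with 2 members higher, and 8 higher and 7 lower in the wider actin list; a limit on fold size removes small changes by construction. The PFN2 to PFN1 difference ran from -0.16 to 0.11 when single libraries were left out. Scaling by library totals, added after the data were seen, moved the median log2 fold change of all genes from -0.01 to -0.07 and the share of called genes that were higher from 47.1% to 40.3%. The adjusted p of PFN2 ranged from 0.000109 to 0.0455 over its 13 alternatives, and that of DSTN from 0.0563 to 0.779. Exact permutation with 3 against 3 cannot go below 0.1, so the ratios between relatives could not pass a threshold of 0.05.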
